A study of Mus musculus with 3 samples.

Results

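Neutrophils were described in single-cell RNA-sequencing data from the mouse left ventricle, across 3 libraries of a study of heart failure with preserved ejection fraction (HFpEF). A cell barcode was kept when it held at least 500 UMIs (unique molecular identifiers, each standing for 1 captured transcript), at least 300 genes and at most 20% of UMIs from mitochondrially encoded genes. A kept barcode counted as a neutrophil when it held at least 20 UMIs of S100a8 and S100a9 together and at least 1 UMI of Retnlg, Csf3r or Cxcr2. It also had to hold no more than 1 UMI of C1qa, C1qb and C1qc, no more than 3 of Col1a1 and Col3a1, and 0 of Cd79a and Cd3e. The rule found 206 neutrophils among 45239 kept cells, namely 33 of 12939 in the Control library, 71 of 14909 in the HFpEF-scr library, and in the HFpEF-FoxO1-sh library 102 of 17391.

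The mice were labelled C56Bl6 in all 3 groups, and their age and sex are not given in the sources used here. Control mice had a control diet for 10 weeks and no viral vector. HFpEF-scr mice had, over 6 weeks, a High-Fat + L-NAME diet and received an adeno-associated vector with a scrambled hairpin (AAV-scramble-sh) over 4 weeks. HFpEF-FoxO1-sh mice had the same diet and a vector with a hairpin against FoxO1 (AAV-FoxO1-sh), also over 4 weeks. L-NAME inhibits nitric oxide synthases, so this diet joins a metabolic load with raised blood pressure. Diet, its length as labelled and the vector differed together between Control and the other groups, and their parts cannot be told apart. Each group was 1 library from 4 pooled samples of enzymatically dissociated ventricle, strained to remove cardiomyocytes and treated to lyse red cells. With 1 library per group there was no replicate and no test, and every interval below covers counting error only. Circulating and tissue neutrophils cannot be told apart in these data.

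Neutrophils are short-lived granulocytes that mature in bone marrow, circulate and enter injured tissue, where they respond to chemokines and to bacterial or damage signals. Their granules are filled in order during maturation: primary granule genes (Elane, Mpo) in promyelocytes, secondary granule genes (Ltf, Camp, Ngp) in myelocytes, and gelatinase genes (Mmp9) later. Mature neutrophils have shut down most granule genes and carry transcripts of chemoattractant receptors, S100 proteins and interleukin 1 beta. In the heart they are a small population at rest, and they are known for early entry after injury.

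The cells were recognisable as neutrophils by genes that the rule did not use. Hdc, which makes histamine, was at 1233, 1311 and 1781 CPM, in the order Control, HFpEF-scr, HFpEF-FoxO1-sh that is kept below for values from all libraries. CPM stands for counts per 1e6, the UMIs of a gene scaled to 1e6 neutrophil UMIs in that library. Trem1, an activating receptor of granulocytes, was at 458, 515 and 716 CPM. Mmp9, the gelatinase of the late granules, was at 1043, 1110 and 1243 CPM and was at 0 UMIs in the classical monocytes of all 3 libraries. Of the genes in the rule, S100a8 was at 44206, 71543 and 53195 CPM and S100a9 at 52758, 77808 and 68808. These 2 genes code for the subunits of calprotectin, lie on chromosome 3 (mm10, chr3:90668978-90670035 and chr3:90692632-90695721), and held 9.70%, 14.9% and 12.2% of neutrophil UMIs. In macrophages S100a8 did not pass 2.04 CPM in any library, in monocytes 17.1 and in fibroblasts 1.34, although these classes were defined in part by low S100a8 and S100a9. Retnlg, a resistin-like gene of neutrophils, was at 4102, 5916 and 4901 CPM, and Csf3r, the receptor for granulocyte colony-stimulating factor, at 1336, 1230 and 1774. Since S100a8, S100a9, Retnlg and Csf3r chose the cells, their levels are a description.

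Il1b, the gene of interleukin 1 beta, was found in nearly every neutrophil. It had a UMI in 100%, 100% and 99.0% of the cells, against 14.6% to 18.2% of macrophages and 44.4% to 54.6% of monocytes. Its level was 8876, 5838 and 10853 CPM in neutrophils, 435, 428 and 585 in monocytes and 163, 133 and 209 in macrophages. Cxcl2, a chemokine that acts on Cxcr2, was at 4268, 4999 and 4104 CPM, and Cxcr4, the receptor that holds neutrophils in marrow and is higher on aged cells, at 1035, 1058 and 1057. Both differed between libraries by less than the 1.5-fold used below. G0s2, an inhibitor of fat breakdown, was at 4371, 2746 and 4634 CPM in neutrophils and at 390 to 459 in fibroblasts, so it was not limited to neutrophils. Lyz2 went the other way from the neutrophil genes: at 1747, 4629 and 1221 CPM it was below its level in macrophages (11913, 10605 and 11966).

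**Figure D1:**
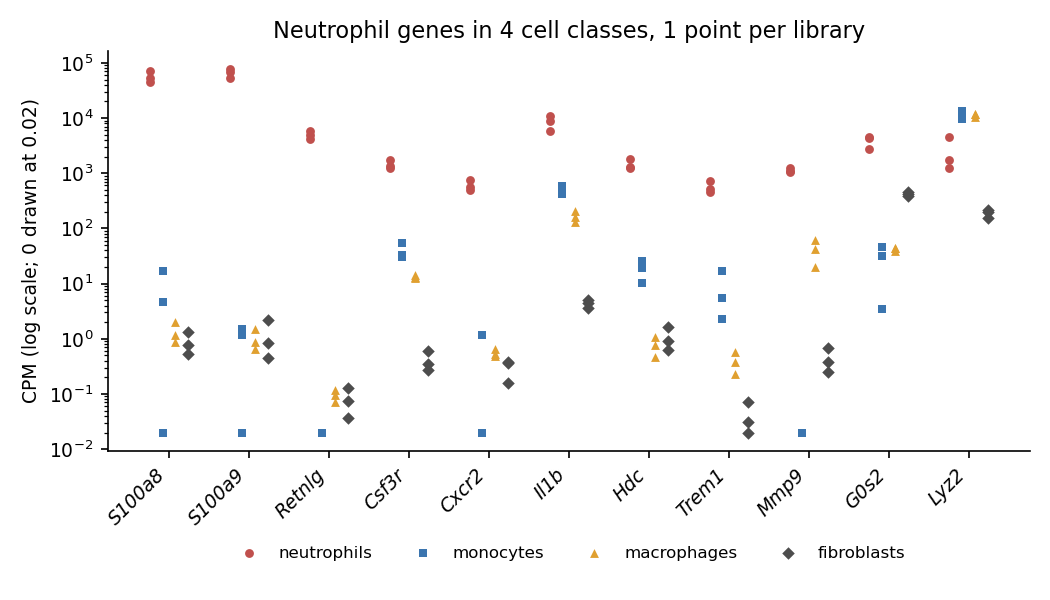
Levels of 11 genes in neutrophils, classical monocytes, macrophages and fibroblasts, in CPM on a log scale, with 1 point per library and class. The neutrophil points stand above those of the other classes for 10 genes and below monocytes and macrophages for Lyz2; values of 0 are drawn at 0.02.

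Neutrophils were the shallowest of the classes compared. Their median UMI count was 2938, 3259 and 2345.5, against 6327 to 7106 in macrophages, 7623 to 8556 in monocytes and 6806 to 7208 in fibroblasts. They held 896, 829 and 814 genes at the median. In all, 126521, 283661 and 269520 UMIs lay behind the neutrophil levels, so a gene at 10 CPM rests on 1 to 3 UMIs per library. Of the 335, 238 and 264 barcodes shared by pairs of libraries (Control with HFpEF-scr, Control with HFpEF-FoxO1-sh, HFpEF-scr with HFpEF-FoxO1-sh), 0 were neutrophils in both libraries. The sum of S100a8 and S100a9 set few cells near the edge of the rule: 0, 0 and 2 barcodes held 20 to 29 UMIs and 0, 0 and 2 held 10 to 19, while the median sum was 382, 467 and 288.

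The share of neutrophils depended on how many mitochondrial UMIs a cell was allowed. At the 20% limit the share of kept cells was 0.255% in Control (exact Clopper-Pearson 95% interval 0.176% to 0.358%), 0.476% in HFpEF-scr (0.372% to 0.60%), and, highest, 0.587% in HFpEF-FoxO1-sh (0.478% to 0.712%). At 50% it was 0.706% (0.593% to 0.834%), 1.33% (1.18% to 1.49%) and 0.633% (0.529% to 0.752%), from 137, 282 and 129 cells. The order of the HFpEF libraries thus changed between the limits, HFpEF-FoxO1-sh being the highest library at 20% and the lowest at 50%. HFpEF-scr over Control was 1.87 (95% interval 1.22 to 2.91) at 20% and 1.88 (1.53 to 2.32) at 50%. The ratio of HFpEF-FoxO1-sh to HFpEF-scr was 1.23 (0.901 to 1.69) at 20% and 0.477 (0.384 to 0.589) at 50%. HFpEF-FoxO1-sh over Control was 2.30 (1.54 to 3.52) at 20% and 0.897 (0.700 to 1.15) at 50%. Of the 3 ratios, that of HFpEF-scr over Control kept its value at both limits.

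The mitochondrial share of the neutrophils differed between libraries more than that of monocytes did. Without a limit, 76.6% of Control neutrophils and 74.9% of HFpEF-scr neutrophils held over 20% mitochondrial UMIs, against 20.9% in HFpEF-FoxO1-sh. Their median mitochondrial share was 26.1%, 25.4% and 14.8%. The same split was found in macrophages (34.1%, 29.3% and 9.52% over the limit) and in all cells (35.5%, 31.6% and 15.5%), while monocytes were at 2.50%, 5.28% and 3.0%. The median mitochondrial share of monocytes was lowest in HFpEF-FoxO1-sh as well, at 11.0%, 11.8% and 7.72%. The 20% limit therefore removed most neutrophils of 2 libraries and few of the third, and the cause was not tested. Macrophages were less affected: the ratio of their share in HFpEF-FoxO1-sh to that in HFpEF-scr was 1.07 at 20% and 1.03 at 50%. Against macrophages, there were 2.49, 3.78 and 4.36 neutrophils per 100 at 20% and 7.04, 10.8 and 5.02 at 50%. Per monocyte there were 0.282, 0.305 and 1.05 neutrophils at 20% and 1.14, 1.15 and 1.29 at 50%. The monocyte share itself was 1.73 (1.38 to 2.18) times as high in HFpEF-scr as in Control at 20% and 1.87 (1.49 to 2.34) times at 50%, so at each limit the number of neutrophils per monocyte was nearly the same in Control and HFpEF-scr.

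**Figure D2:**
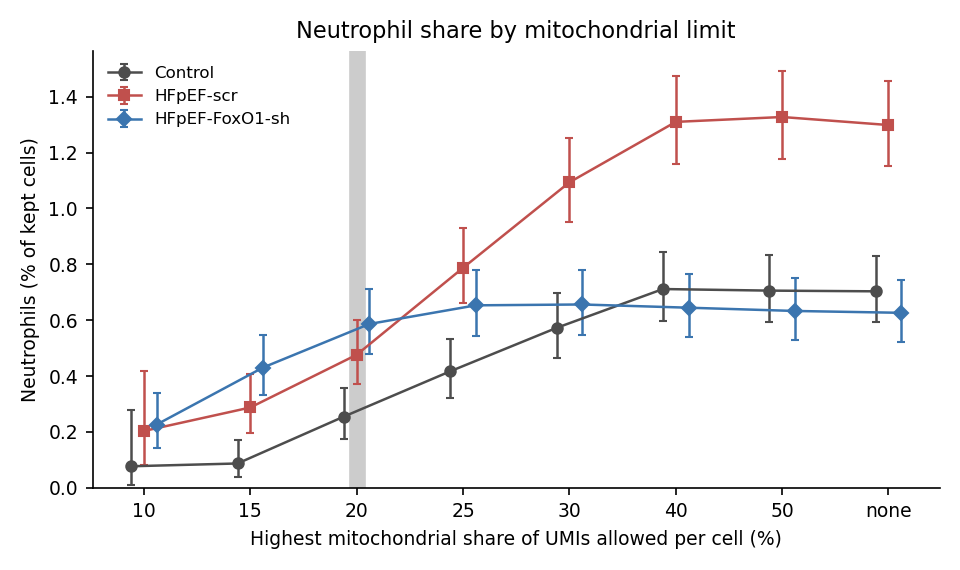
Neutrophils as a percentage of kept cells in each library, by the highest mitochondrial share of UMIs allowed per cell; bars are exact 95% intervals and the grey band marks the 20% limit. HFpEF-scr climbs from 0.476% at 20% to 1.33% at 50%, while HFpEF-FoxO1-sh moves only from 0.587% to 0.633%.

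Some of the gated barcodes held transcripts of a second cell. A barcode was called mixed when it held at least 5 UMIs of monocyte and dendritic markers, at least 10 of vessel-wall and fibroblast markers, or at least 100 of haemoglobin. By this measure 8 of 33 barcodes were mixed in Control, 18 of 71 in HFpEF-scr, but 5 of 102 in HFpEF-FoxO1-sh, and they held 44.4%, 40.04% and 14.5% of neutrophil UMIs. The contrast was smaller at the 50% limit, where 9 of 137, 26 of 282 and 5 of 129 were mixed (6.57%, 9.22% and 3.88%). At the 20% limit the kinds differed: monocyte or dendritic transcripts marked 1, 8 and 1 barcodes, vessel-wall or fibroblast transcripts 5, 5 and 3, and haemoglobin 2, 5 and 1. Without the mixed barcodes, endothelial markers summed to 71.0, 64.7 and 86.7 CPM in place of 3501, 1216 and 608, and erythroid markers to 185, 758 and 182 in place of 40847, 47754 and 5243. Monocyte markers moved less, from 1193, 3155 and 1621 CPM to 1250, 1793 and 1583. Macrophage markers were at 782, 973 and 538 CPM with 11, 9 and 8 of 20 genes at 0 UMIs. Lymphocyte markers were at 47.4, 14.1 and 0 CPM with 12, 11 and 14 of 14 genes at 0 UMIs. Scrublet, a doublet caller, marked 1, 0 and 2 of the neutrophils and 1.41%, 2.29% and 3.09% of kept cells. The part of such barcodes in each result was not tested beyond the sets described next.

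Every comparison was therefore repeated in 6 other sets of cells or scales. These were CPM counted outside mitochondrial, haemoglobin and gate genes, the 20% set without mixed barcodes on both scales, the 50% set without mixed barcodes on both scales (128, 256 and 124 cells), and the 20% set without mixed and immature barcodes. A gene was called when its CPM differed at least 1.5-fold, the 95% counting interval of the ratio left out 1, and the ratio stayed at 1.5-fold without the barcode that held most of its UMIs. Genes with at least 20 UMIs over both libraries were measured. The share of all measured genes called in a comparison is given as the background against which a list is read.

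Among the genes higher in HFpEF-scr than in Control neutrophils were Wfdc17, Wfdc21, Lcn2 and 3 Ifitm genes, described first because they were called in every set. Wfdc17, which codes for a secreted whey acidic protein, was at 466 CPM in Control, at 2739 in HFpEF-scr but only 657 in HFpEF-FoxO1-sh, a ratio of 5.87 (95% interval 4.50 to 7.79) for HFpEF-scr over Control. Its neighbour on chromosome 11, Wfdc21, was at 490, 2210 and 746 CPM, a ratio of 4.51 (3.47 to 5.95). Lcn2, the granule protein that binds bacterial iron carriers, was at 980, 2626 and 883 CPM, a ratio of 2.68 (2.21 to 3.27). In each of these 3 genes the HFpEF-scr library stood apart and the other libraries lay within 1.5-fold of each other, apart from Wfdc21 at 1.52-fold. Without mixed and immature barcodes the ratios over Control were 7.36, 3.70 and 2.64, and in the 50% set without mixed barcodes, on the scale outside mitochondrial, haemoglobin and gate genes, 4.60, 3.65 and 3.63. Wfdc17 had a UMI in 48.5%, 67.6% and 32.4% of neutrophils, and in 27.3%, 56.3% and 30.4% after each cell was thinned to 1000 UMIs. Fibroblasts, deeper cells of another lineage, had a Wfdc17 UMI in 2.39%, 2.90% and 2.86%. Free RNA was estimated at 2.68%, 1.84% and 2.17% of neutrophil UMIs, and the log2 ratio was 2.54 with it subtracted. In macrophages Wfdc17 was at 1713, 1434 and 1600 CPM, lowest in HFpEF-scr, and in monocytes at 578, 941 and 722, highest there.

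The interferon-induced transmembrane genes Ifitm1, Ifitm3 and Ifitm6, which lie in one cluster on chromosome 7 and code for membrane proteins that hinder viral entry, were higher in HFpEF-scr as well. Ifitm1 was at 806, 2609 and 939 CPM, a ratio of 3.24 (2.63 to 4.02) over Control and 5.45 without mixed and immature barcodes. Ifitm3 was at 846, 1375 and 902 CPM, a ratio of 1.63 (1.31 to 2.03). Ifitm6 was at 71.1, 416 and 70.5 CPM, a ratio of 5.85 (2.98 to 13.1) that came to 2.96 without mixed and immature barcodes. In macrophages Ifitm1 was at 5.06, 8.15 and 8.32 CPM and Ifitm6 at 26.8, 18.04 and 31.9, so that HFpEF-scr was the highest library for neither gene. In monocytes it was the highest for both, at 1.83, 19.1 and 5.81 CPM for Ifitm1 and 202, 305 and 273 for Ifitm6. No more of the interferon response list was higher: 3 of 21 measured members were called higher and 1 lower (Irf1, an interferon regulatory factor, 158 and 63.5 CPM, ratio 0.401, interval 0.20 to 0.799). Over all 2149 measured genes, 6.19% were called higher and 8.56% lower, and the median log2 ratio was -0.10 against 0.19 for this list. The list does not hold every interferon gene: Oas3, outside it, was called higher in the main set and all 6 other sets.

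Receptor, complement and metabolic genes were among the other genes called higher in HFpEF-scr in the main set and all 6 other sets. Fpr2, a formyl peptide receptor, was at 79.0, 212 and 108 CPM, a ratio of 2.68 (1.36 to 5.86) over Control. C3, the central complement component, was at 23.7, 180 and 70.5 CPM, a ratio of 7.58 (2.45 to 38) that rests on 3 UMIs in Control and was 3.03 in the 50% set without mixed barcodes. Plin2, a coat protein of lipid droplets, was at 79.0, 236 and 130 CPM, a ratio of 2.99 (1.53 to 6.52). Acod1, which makes itaconate, was at 371, 793 and 404 CPM, a ratio of 2.14 (1.55 to 2.99). Upp1, a uridine phosphorylase, had 0, 27 and 5 UMIs, so it was at least 4.01-fold higher in HFpEF-scr than 3 UMIs would give in Control. Ctsb, a lysosomal protease, was at 182, 360 and 171 CPM, a ratio of 1.98 (1.25 to 3.26). In all, 21 of the 133 genes called higher and 6 of the 184 called lower were called the same way in all 6 other sets. Acod1 and Upp1 in this comparison, like Lcn2 throughout, were named after their values were seen.

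Ptgs2, the inducible cyclooxygenase that makes prostaglandin precursors, was among the 6 genes called lower in all sets. It was at 1225, 638 and 1803 CPM, lowest in HFpEF-scr, and the ratio of HFpEF-scr to Control was 0.521 (0.418 to 0.650). It had a UMI in 90.9%, 54.9% and 77.5% of neutrophils, and in 66.7%, 35.2% and 63.7% after thinning, against 4.31%, 3.67% and 3.51% of macrophages unthinned. The ratio was 0.401 without mixed and immature barcodes and 0.584 in the 50% set on the scale outside mitochondrial, haemoglobin and gate genes. Il1b, the main cytokine of the same list, was at a ratio of 0.658 (0.609 to 0.710) and was not called, since it passed 1.5-fold only with the barcode that held most of its UMIs in Control. Without mixed and immature barcodes its ratio was 0.590 and it was called lower. Of the IL-1 and TNF list, 0 of 13 measured genes were called higher and 1 lower. Ppia, a cyclophilin expressed in most cells, was lower in HFpEF-scr at a ratio of 0.351 (0.268 to 0.460), but at 0.828 without mixed barcodes, where it was not called.

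Transcripts of the secondary granule genes Camp, Ngp and Ltf came almost wholly from 2 barcodes of HFpEF-scr. Of 17 measured genes of the secondary and tertiary granule list, 9 were called higher in HFpEF-scr than in Control and 0 lower, against 6.19% and 8.56% of all genes, with a median log2 ratio of 1.40. Camp, the gene of cathelicidin, had 518 UMIs in HFpEF-scr and 0 in the other libraries, and all 518 were in 2 cells. Those 2 cells also held 703 of the 714 UMIs of Ngp and 184 of the 185 UMIs of Ltf, the lactoferrin gene. Elane and Mpo, the primary granule proteases and peroxidase of earlier stages, had 0 UMIs in all 3 libraries. Without mixed and immature barcodes, 2 of 9 measured genes of the list were called higher, at a median of 0.50, and those were Lcn2 and Wfdc21, against 5.04% of all genes. Cybb, a subunit of the oxidase that makes superoxide, was at 47.4, 479 and 26.0 CPM, and its ratio of 10.1 (4.53 to 28.0) over Control was no longer called without mixed and immature barcodes (6.47). There it had 14 UMIs in HFpEF-scr and 1 in Control, under the 20 needed to be measured. Ly6g, the surface antigen used to sort mouse neutrophils, was at 31.6, 134 and 74.2 CPM from 4, 38 and 20 UMIs, and its call was lost in the same set (4.16, 0.995 to 36.9). At the 50% limit without these barcodes the ratios over Control were 3.44 (1.45 to 9.93) for Cybb and 4.03 (1.43 to 15.7) for Ly6g, and both intervals left out 1.

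Other lists moved with the set of cells. Where a set changed the mitochondrial limit or the scale as well as the mixed barcodes, the part of each was not tested. Markers of other cells moved with the mixed barcodes. In HFpEF-scr over Control 7 of 10 measured monocyte markers and 4 of 4 dendritic markers were called higher. Without mixed barcodes 1 of 6 monocyte markers was, and no dendritic marker was measured. In HFpEF-scr over Control, 6 of 21 immediate early and heat shock genes were called higher at the 20% limit and 1 of 22 in the 50% set without mixed barcodes on the scale outside mitochondrial, haemoglobin and gate genes. The background was 6.19% higher and 8.56% lower at the 20% limit and 4.23% and 4.06% in that 50% set. Hspa1a, an inducible chaperone, had a ratio of 7.25 (4.06 to 14.3), S100a4, which is abundant in monocytes, 22.5 (7.54 to 110) and Cd74, the class II invariant chain of antigen-presenting cells, 5.70 (3.31 to 10.6). Without mixed barcodes Cd74 was at 1.24. Hspa1a and S100a4 then had 19 and 11 UMIs in HFpEF-scr against 0 in Control, under the 20 UMIs needed to be measured, and in the 50% set without mixed barcodes Hspa1a was at 1.47 from 30 and 10 UMIs. Integrin and adhesion genes went from 4 of 11 called higher to 1 of 12. Ccl4, a chemokine, had a ratio of 3.65 (2.17 to 6.58) at the 20% limit. Without mixed barcodes it was 2.04 (1.16 to 3.83) at that limit, where it was still called, and 0.826 in the 50% set. At the 50% limit with mixed barcodes kept, its log2 ratio was -0.030. The unfolded protein response list had 0 genes called in either direction among 10 measured, and the oxidative phosphorylation list 0 higher and 3 lower of 19.

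**Figure D3:**
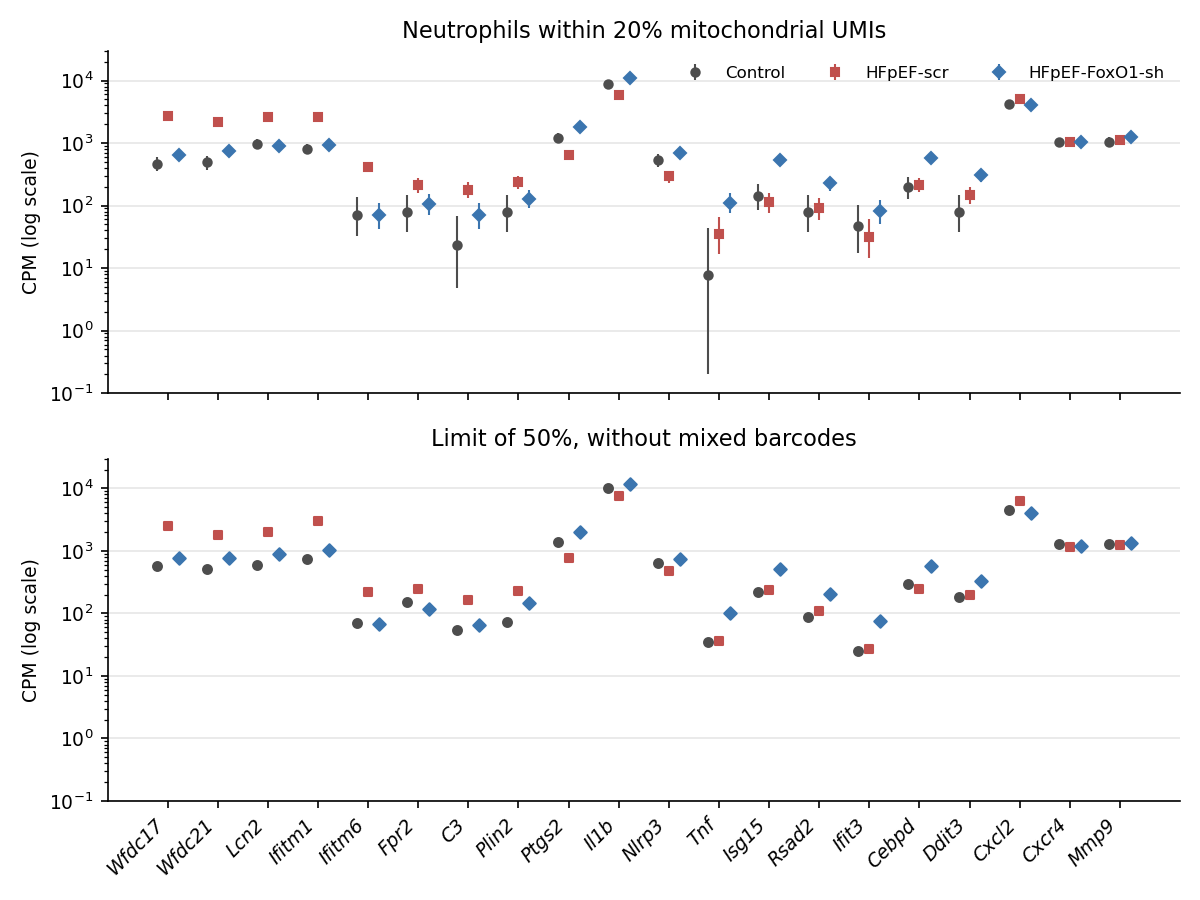
Levels of 20 genes in the neutrophils of each library, in CPM on a log scale; the upper panel shows the 20% set with 95% counting intervals and the lower panel the 50% set without mixed barcodes, without intervals. Wfdc17, Wfdc21, Lcn2, Ifitm1, Ifitm6 and C3 stand highest in HFpEF-scr in both panels, and Isg15, Cebpd and Tnf highest in HFpEF-FoxO1-sh.

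HFpEF-FoxO1-sh neutrophils were then set beside HFpEF-scr neutrophils, 2 libraries that share the diet and the kind of vector and differ in the hairpin. Foxo1 itself was too sparse in these cells for a comparison: it had 2, 2 and 1 UMIs, in 6.06%, 2.82% and 0.980% of neutrophils. In fibroblasts, where it was readily detected, Foxo1 was at 64.8, 59.1 and 63.6 CPM, and in macrophages at 22.2, 19.3 and 22.3, so the library labelled HFpEF-FoxO1-sh was not lower there. Which cells took up the vector was not measured here. Directions below are those of the labels.

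Granule genes, and many of the genes named above as high in HFpEF-scr, were lower in HFpEF-FoxO1-sh. Because both comparisons hold the same HFpEF-scr cells, a value that is high there gives a high ratio in one and a low ratio in the other, and the second is no separate support. Wfdc17 was at 657 against 2739 CPM, a ratio of 0.240 (0.202 to 0.283), Wfdc21 at 0.337 (0.286 to 0.396) and Lcn2 at 0.336 (0.289 to 0.390). Ifitm1 had a ratio of 0.360 (0.311 to 0.416), Ifitm6 of 0.169 (0.0985 to 0.277), Fpr2 of 0.509 (0.315 to 0.805), C3 of 0.392 (0.219 to 0.676) and Acod1 of 0.510 (0.402 to 0.644). These 8 genes were called lower in the main set and in all 6 other sets. So was Upp1 at 0.195 (0.0586 to 0.513) and Lyz2 at 0.264 (0.233 to 0.298), the latter at 0.553 in the 50% set without mixed barcodes. Plin2, at 0.550 (0.354 to 0.839), lost its call without mixed barcodes, where it was 0.658. Of 17 measured granule genes, 10 were called lower and 0 higher, against a background of 5.09% lower and 10.1% higher over 2650 genes. Without mixed and immature barcodes, 4 of 10 were lower and 0 higher, against 2.41% and 11.3% of all genes, with a median log2 ratio of -0.66 in place of -1.55. At the 50% limit without these barcodes, Lcn2 was at 879 CPM in HFpEF-FoxO1-sh against 1747 in HFpEF-scr, and Wfdc21 at 782 against 1655. Some other granule genes lay close there: Mmp8 at 245 against 265, Pglyrp1 at 779 against 805 and Mmp9 at 1330 against 1187. Lyz2 and Cybb did not, at 1178 against 1917 and, from 6 and 41 UMIs, at 20.7 against 65.8. Markers of other cells were lower too, 6 of 9 measured monocyte markers, 4 of 4 dendritic and 5 of 5 erythroid, and without mixed barcodes 1 of 6 monocyte and 2 of 3 erythroid markers were.

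Ptgs2, Tnf and Il1b were higher in HFpEF-FoxO1-sh, while chemokines were not shifted one way (1 of 5 called higher and 2 lower). Ptgs2 was at 1803 CPM against 638 in HFpEF-scr and 1225 in Control, a ratio of 2.83 (2.38 to 3.37) over HFpEF-scr. Tnf, the tumour necrosis factor gene, was at 7.90, 35.3 and 111 CPM, a ratio of 3.16 (1.5 to 7.24) from 30 and 10 UMIs. Both kept their call in all 6 other sets, with ratios of 2.18 and 2.35 in the 50% set on the scale outside mitochondrial, haemoglobin and gate genes. Il1b had a ratio of 1.86 (1.75 to 1.98) and Nlrp3, the inflammasome sensor that leads to release of interleukin 1 beta, of 2.40 (1.84 to 3.14). In that 50% set they came to 1.31 and 1.30 and were not called. Of 15 measured IL-1 and TNF genes, 6 were called higher and 0 lower, against 10.1% and 5.09% of all genes, with a median log2 ratio of 0.43 against 0.19. In that 50% set, 2 were higher and 2 lower, with a median of 0.10, against 4.68% and 4.23% of all genes.

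A part of the interferon response list was higher as well. Isg15, a ubiquitin-like protein that interferon induces, was at 142, 113 and 527 CPM, highest in HFpEF-FoxO1-sh, a ratio of 4.67 (3.16 to 7.09) over HFpEF-scr. It had a UMI in 21.2%, 28.2% and 41.2% of neutrophils, and in 9.09%, 11.3% and 30.4% after thinning. Rsad2, the antiviral enzyme viperin, was at 79.0, 91.7 and 226 CPM, a ratio of 2.47 (1.54 to 4.07). Ifit3, a member of the family that binds viral RNA, was at 47.4, 31.7 and 81.6 CPM, a ratio of 2.57 (1.14 to 6.35) from 22 and 9 UMIs. Isg15 and Ifit3 were called in all 6 other sets, at 1.87 and 2.42 in the 50% set on the scale outside mitochondrial, haemoglobin and gate genes, whereas Rsad2 came to 1.60 there and was not called. Ifitm1 and Ifitm6, of the same list, were the 2 members called lower, and Samd9l, outside the list, was called lower in every set. In all, 5 of 25 measured members were higher, against 10.1% of all genes, with a median log2 ratio of 0.54 against 0.19. In macrophages Isg15 was at 39.7, 37.9 and 46.1 CPM and in monocytes at 42.1, 40.6 and 55.7, without a difference of 1.5-fold between libraries.

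Interferon transcripts were also counted per cell. Summed over the 37 genes of the list other than the Ifitm genes, the level was 2363, 2468 and 3673 CPM. Cells with at least 10 of these UMIs numbered 7 of 33, 26 of 71 and 29 of 102 (21.2%, 36.6% and 28.4%). In the 20% set without mixed barcodes they made up 12%, 30.2% and 27.8%, so HFpEF-scr was the highest library at this limit. In the 50% set without mixed barcodes such cells made up 12.5% (exact interval 7.32% to 19.5%), 19.5% (14.9% to 24.9%) and 25% (17.7% to 33.6%). There HFpEF-FoxO1-sh was the highest, so the order of the HFpEF libraries depended on the set. Deeper cells reach 10 UMIs more readily, and the median depth of the 20% set was lowest in HFpEF-FoxO1-sh.

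The promoters of 3 interferon response genes that were higher in HFpEF-FoxO1-sh are shown beside that of Ifitm1, which was lower. They were picked because they differ in a motif, so that difference is set by the choice and is an illustration only. Whether the motif goes with the direction of the genes was not tested. Each is the 250 bases before the gene's start in RefSeq (build GRCm38.p6), read in the direction of the gene. Capitals mark GAAA, any 2 bases and GAAA again, the core of the interferon-stimulated response element, on either strand (TTTC, any 2 bases and TTTC on the other).
Isg15, chr4:156200819-156201068 (minus strand): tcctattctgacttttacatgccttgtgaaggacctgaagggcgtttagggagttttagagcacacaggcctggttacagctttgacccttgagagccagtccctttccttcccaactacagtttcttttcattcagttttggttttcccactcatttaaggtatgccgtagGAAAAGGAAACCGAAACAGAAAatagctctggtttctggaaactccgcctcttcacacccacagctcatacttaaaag
Rsad2, chr12:26456453-26456702 (minus strand): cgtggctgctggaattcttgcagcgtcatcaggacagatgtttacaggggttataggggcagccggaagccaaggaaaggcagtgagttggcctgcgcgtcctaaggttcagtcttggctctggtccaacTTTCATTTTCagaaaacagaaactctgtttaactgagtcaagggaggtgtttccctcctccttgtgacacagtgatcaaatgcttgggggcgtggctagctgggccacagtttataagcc
Ifit3, chr19:34583279-34583528 (plus strand): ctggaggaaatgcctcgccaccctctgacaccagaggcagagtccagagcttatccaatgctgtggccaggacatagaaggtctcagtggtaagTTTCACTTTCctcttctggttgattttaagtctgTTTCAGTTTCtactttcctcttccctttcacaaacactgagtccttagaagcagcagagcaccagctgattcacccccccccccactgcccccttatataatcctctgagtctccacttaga
Ifitm1, chr7:140967826-140968075 (plus strand): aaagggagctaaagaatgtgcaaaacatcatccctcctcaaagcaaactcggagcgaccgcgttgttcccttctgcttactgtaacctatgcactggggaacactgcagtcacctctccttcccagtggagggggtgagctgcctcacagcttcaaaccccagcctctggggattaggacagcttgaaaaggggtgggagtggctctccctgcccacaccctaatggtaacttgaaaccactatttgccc

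Isg15 held 3 overlapping matches, Ifit3 held 2 and Rsad2 held 1, while Ifitm1 held 0 in this window. Over all 32851 promoters of this length, 978 (2.98%) held the motif, and of the 40 promoters of the interferon response list, 18 (45%) did. A match is a run of letters and not a measured binding site, and the absence of one speaks only of these 250 bases. By the GENCODE positions Ifitm1 spans chr7:140967221-140969825, so its window, placed by the RefSeq start, lies inside that gene model.

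Cebpd, Pnpla2, Trf and genes of stress and survival were also higher in HFpEF-FoxO1-sh than in HFpEF-scr, while the metabolic lists were not shifted one way. Of the lipid and PPAR list 2 of 12 measured genes were called higher and 2 lower, of glycolysis and hypoxia 3 of 18 and 0, of oxidative stress 1 of 13 and 1, and of oxidative phosphorylation 0 of 21 in either direction, against a background of 10.1% and 5.09%. Cebpd, a transcription factor of the acute phase, was at 198, 215 and 571 CPM, a ratio of 2.66 (1.96 to 3.64) that was called in all 6 other sets. Pnpla2, the lipase that opens stored triglyceride, was at 134, 52.9 and 152 CPM, a ratio of 2.88 (1.56 to 5.60), and Trf, the transferrin gene, at 94.8, 38.8 and 171 CPM, a ratio of 4.40 (2.25 to 9.42). Both were called in all 6 other sets, and in both HFpEF-scr was the low library. Ddit3 and Ppp1r15a, a transcription factor and a phosphatase subunit of the integrated stress response, had ratios of 2.05 (1.40 to 3.06) and 1.97 (1.5 to 2.59). Pim1, a survival kinase, had a ratio of 1.80 (1.55 to 2.09), and Gpx4, which protects membranes from lipid peroxides, of 2.12 (1.53 to 2.98). In the 50% set on the scale outside mitochondrial, haemoglobin and gate genes these 4 came to 1.42, 1.33, 1.23 and 1.40 and were not called. Survival and apoptosis genes numbered 6 higher and 0 lower of 12 at the 20% limit, and 0 higher and 1 lower of 13 in that 50% set, where 4.68% of all genes were higher and 4.23% lower.

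Genes of FoxO and insulin signalling were examined as the pathway of the targeted factor. FoxO1 is a transcription factor that insulin signalling keeps out of the nucleus, and it drives genes of metabolism and stress resistance. Of 22 measured members, 4 were called higher and 0 lower, against 10.1% and 5.09% of all genes, and the median log2 ratio was 0.29 against 0.19. In the 50% set on the scale outside mitochondrial, haemoglobin and gate genes, 0 of 23 were called in either direction, against 4.68% higher and 4.23% lower over all genes. Foxo3, a relative of Foxo1, was at 31.6, 45.8 and 66.8 CPM from 4, 13 and 18 UMIs. Ccl3, a chemokine, was lower at 167 against 349 CPM, a ratio of 0.478 (0.329 to 0.687) that was 0.482 in that 50% set and 0.646, not called, without mixed and immature barcodes. Fcgr4, an activating IgG receptor of mature neutrophils, was higher at 108 against 45.8 CPM, a ratio of 2.35 (1.18 to 4.92) that came to 1.61 and was not called in that 50% set.

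The balance of higher and lower genes depended on the scale. Over 2650 measured genes, 268 were called higher and 135 lower in HFpEF-FoxO1-sh, with a median log2 ratio of 0.19. On the scale outside mitochondrial, haemoglobin and gate genes, 138 were higher and 186 lower, with a median of 0.04. Haemoglobin held 4.76% of neutrophil UMIs in HFpEF-scr against 0.523% in HFpEF-FoxO1-sh, and the kept share of mitochondrial UMIs was lower in HFpEF-FoxO1-sh (13.7% against 15.96% at the median). In HFpEF-scr over Control the counts were 133 higher and 184 lower, or 169 and 149 on the other scale. Across all 7 sets, 24 of the 268 higher genes and 12 of the 135 lower genes kept their call.

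**Figure D4:**
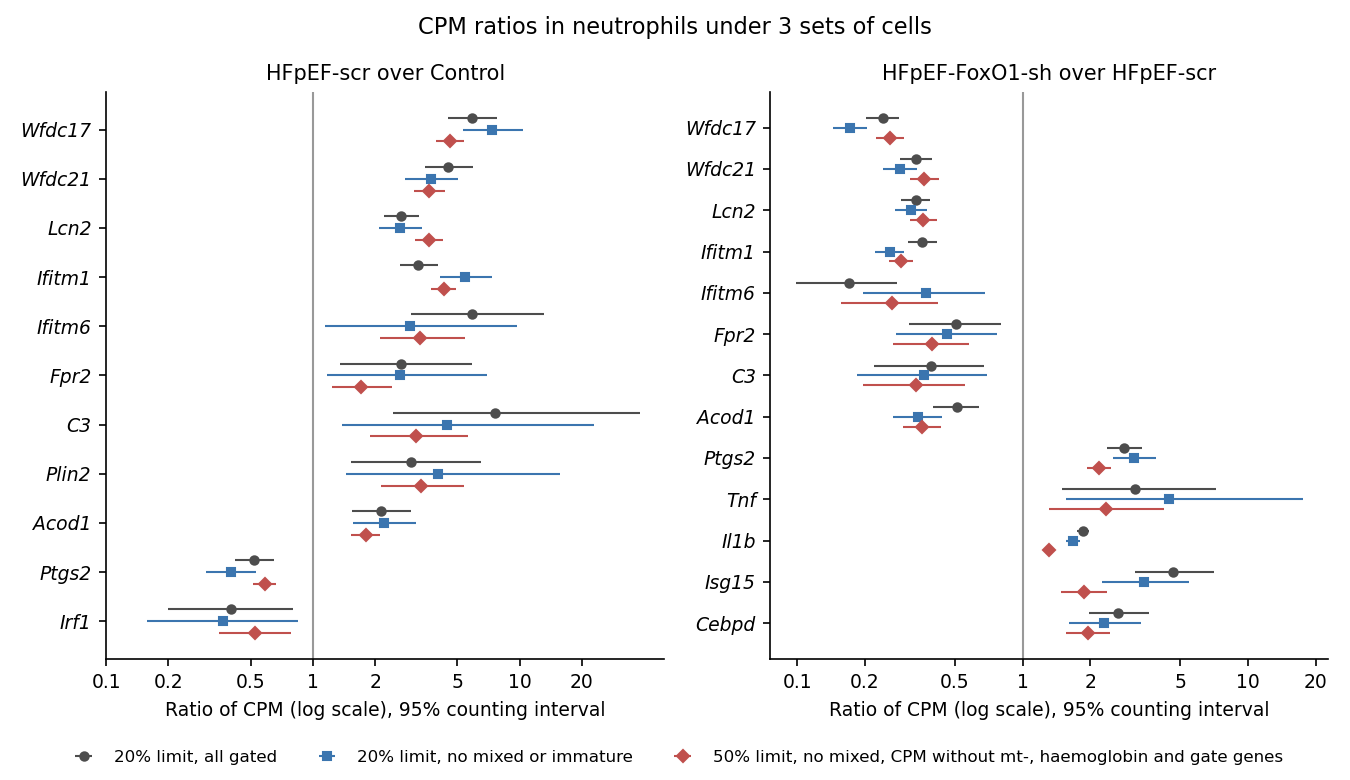
Ratios of CPM with 95% counting intervals on a log scale, for 11 genes in HFpEF-scr over Control and 13 in HFpEF-FoxO1-sh over HFpEF-scr, in 3 of the 7 sets. Each gene stays on 1 side of 1 in all 3 sets, and Il1b falls from 1.86 to 1.31 in the 50% set.

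HFpEF-FoxO1-sh neutrophils lay close to Control neutrophils in several of the genes that were high in HFpEF-scr. Wfdc17, Lcn2, Ifitm1 and Ifitm6, at 657, 883, 939 and 70.5 CPM in HFpEF-FoxO1-sh and 466, 980, 806 and 71.1 in Control, were not called. Several lists had called members that were all higher, and of those named here the interferon response list had the most in the 50% set. Isg15 had a ratio of 3.70 (2.26 to 6.43) over Control, 2.77 without mixed and immature barcodes and 2.05 in the 50% set on the scale outside mitochondrial, haemoglobin and gate genes. Ifit1, which binds RNA that lacks a host cap, was at 92.8 against 7.90 CPM, a ratio of 11.7 with a counting interval of 1.92 to 482, since Control had 1 UMI. Rsad2 had a ratio of 2.86 (1.46 to 6.27) and Rtp4, a chaperone induced by interferon, of 2.82 (1.25 to 7.43). Rtp4 was not called without mixed barcodes (2.09, interval 0.881 to 6.01), and Rsad2 was not called there on the scale outside mitochondrial, haemoglobin and gate genes (1.88, 0.927 to 4.31). Of 22 measured interferon response genes, 6 were called higher and 0 lower, against 8.01% higher and 5.91% lower over 2234 genes, with a median log2 ratio of 0.52 against 0.11. In the 50% set on that scale, 9 of 24 were higher and 0 lower, with a median of 0.33, against a background of 3.06% and 2.83%.

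The other lists were higher mainly at the 20% limit. Immediate early and heat shock genes had 9 of 22 called higher, neutrophil identity genes 8 of 22, the Siglecf state 5 of 14, pattern recognition 4 of 8, IL-1 and TNF 4 of 14 and integrins and adhesion 3 of 8, with 0 lower in each. In the 50% set without mixed barcodes, on the scale outside mitochondrial, haemoglobin and gate genes, they had 0 of 21, 2 of 22, 2 of 16, 0 of 10, 1 of 14 and 0 of 9 called higher.

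Tnf, at 30 UMIs against 1, had a ratio of 14.1 (2.34 to 575) over Control, and of 2.52 in the 50% set on the scale outside mitochondrial, haemoglobin and gate genes. Cebpd had a ratio of 2.89 (1.89 to 4.61) and Ddit3 of 3.85 (1.99 to 8.33), and both were called in all 6 other sets. Rgcc, a regulator of the cell cycle, was the one gene called lower in all 7 sets, at 111 against 356 CPM, a ratio of 0.313 (0.190 to 0.508). Ccl4 and Dusp5, a phosphatase of ERK kinases, had ratios of 5.31 (3.18 to 9.49) and 4.22 (2.43 to 7.95), but 1.18 and 1.24 in the 50% set without mixed barcodes, where they were not called. Spp1, the osteopontin gene, had 59 UMIs in HFpEF-FoxO1-sh, of which 48 were in 1 cell. Of the 10 measured granule genes, 0 were called in either direction at the 20% limit. Siglecf, which marks a neutrophil state described in injured hearts and tumours, had 1, 1 and 4 UMIs. In all, 9 of the 179 higher and 1 of the 132 lower genes were called in all 7 sets, and on the scale outside mitochondrial, haemoglobin and gate genes 142 were higher and 156 lower.

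**Figure D5:**
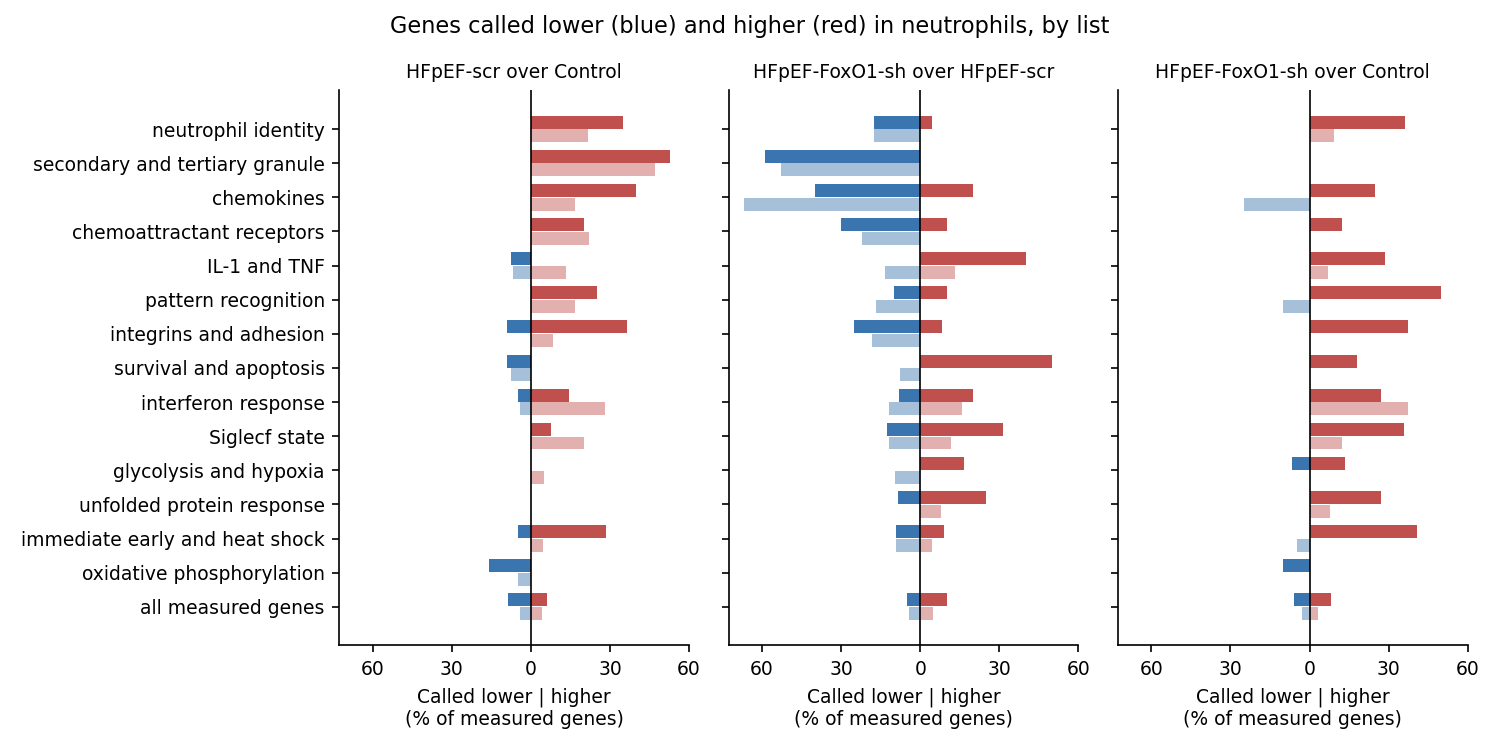
Percentage of measured genes of each list called lower (left of 0) and higher (right of 0) in the 3 comparisons; dark bars are the 20% set and pale bars the 50% set without mixed barcodes on the scale outside mitochondrial, haemoglobin and gate genes. The bottom row gives all measured genes, and lists of other cell types' markers are not drawn. By the dark bars the granule list stands furthest from the bottom row, among the lists drawn, in HFpEF-scr over Control and, to the other side, in HFpEF-FoxO1-sh over HFpEF-scr; short lists such as the chemokines move far with each gene.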

How the data were processed

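Single cells of the left ventricle were measured with the 10x Chromium 3' chemistry, per the labels' protocols, in 3 libraries, 1 per group. The authors deposited 1 matrix of UMI counts per gene and barcode for each library, made with Cell Ranger 6.1.2 on mm10 per the submitters' processing notes. The matrices held 33022, 36179 and 27453 barcodes and 146230530, 154385813 and 144561934 UMIs, in the order Control, HFpEF-scr, HFpEF-FoxO1-sh, and 0 columns were left unused. Ambient RNA was not removed.

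Neutrophil UMIs were summed per library and divided by the summed UMIs (CPM). Ratios carry exact conditional binomial 95% intervals, levels exact Poisson and shares exact Clopper-Pearson intervals, and a count of 0 allows up to 3 UMIs. Log2 ratios of lists use a pseudocount of 10 CPM, and genes of the gating rule were left out of counts and medians. Macrophages held at least 10 UMIs of C1qa, C1qb and C1qc, classical monocytes at least 3 of Ly6c2 and Ccr2 and at least 5 of Lyz2, and fibroblasts at least 10 of collagen and 10 of Dcn. Immature barcodes held at least 50 UMIs of Ngp, Camp and Ltf. Doublets were marked with Scrublet (expected rate 12%) but not removed, in scanpy 1.11.5 under Python 3.11.15 with numpy 2.4.6, scipy 1.17.1 and pandas 2.3.3. The calling step was tried on simulated cells that followed the summed HFpEF-scr neutrophil profile, with known folds set for some genes. Differences between the cells of a library, such as mixed or immature barcodes, were not simulated.

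The neutrophil rule and the 32 gene lists were chosen with earlier results of these data known. Of 514 listed genes, 507 were in the files. Genes were named by rule: the gate genes and Foxo1, up to 4 called members of each list per comparison (or up to 2 with the most UMIs where none was called), and the 10 called genes with the largest log2 ratio in each direction with at least 50 UMIs and 10 cells. Lcn2, Upp1, Lyz2, Ifit3, G0s2, Hdc, Cxcl2, Cxcr4, Foxo3, Siglecf, Elane and Mpo, and C3, Acod1 and Il1b in 1 comparison each, were named after their values were seen. Promoter letters came from RefSeq, and gene positions from the GENCODE annotation of mm10.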

Additional observations from a re-analysis of the deposited data

How the results depend on the processing

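No paired analysis was possible because each group was 1 library, and for the same reason no replicate could be left out. The sets without mixed or immature barcodes, the 50% sets without mixed barcodes, the scale outside mitochondrial, haemoglobin and gate genes, the absent mitochondrial limit and the absent collagen limit were chosen after seeing the data. The neutrophil share ratio of HFpEF-scr over Control stayed above 1 under every alternative, but its interval included 1 at a 10% limit (2.64, 0.502 to 26.0) and as a share of barcodes with a Ptprc UMI (1.42, 0.923 to 2.21). That of HFpEF-FoxO1-sh over HFpEF-scr became 0.477 at a 50% limit, 0.482 with no limit and 1.89 as a share of all barcodes, and that of HFpEF-FoxO1-sh over Control 0.897, 0.891 and 3.72.

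Counts of called genes changed by over 1.5 times as follows, and fewer cells, UMIs or measured genes entered most of these sets. For HFpEF-scr over Control (133 higher, 184 lower), they were 73 and 89 at a 10% limit, 30 and 23 after thinning, 74 and 62 with at least 50 UMIs, 56 and 84 without mixed barcodes, 79 and 67 without them on the outside scale, and 57 and 66 without mixed and immature barcodes. Lower genes were 115 without barcodes marked by Scrublet, which left out 1 neutrophil of Control and 0 of HFpEF-scr. For HFpEF-FoxO1-sh over HFpEF-scr (268 and 135), they were 177 and 33 at 10%, 99 and 42 after thinning, and 160 and 83 with at least 50 UMIs. Higher genes were 138 on the outside scale, 114 on it without mixed barcodes and 145 on it at 50% without them. Lower genes were 255 without the collagen limit, 61 without mixed barcodes, 65 at 50% without them and 44 without mixed and immature ones. For HFpEF-FoxO1-sh over Control (179 and 132), they were 60 and 21 after thinning, 85 and 31 without mixed barcodes, 61 and 54 without them on the outside scale, 78 and 72 on it at 50%, and 85 and 31 without mixed and immature ones. Lower genes were 68 at 50%, 36 at 50% without mixed barcodes, 63 without Scrublet marks, 41 with at least 50 UMIs and 282 without the collagen limit. The Scrublet marks left out 1 neutrophil of Control and 2 of HFpEF-FoxO1-sh in this comparison.

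At the 10% limit, with 2, 7 and 23 neutrophils, log2 ratios turned for Ifitm1 (-0.88), Ifitm3 (-0.19) and Ctsb (-0.083) in HFpEF-scr over Control, and for Ifitm1 (1.03), Acod1 (0.23), Ifit3 (-2.72) and Rsad2 (-1.24) in HFpEF-FoxO1-sh over HFpEF-scr. In the 50% sets Ccl4 (-0.030, -0.27, -0.21) and Ppia (0.10, 0.17) turned in HFpEF-scr over Control. The causes were not tested. Depth limits low genes most, since the Control neutrophils held 126521 UMIs.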
